A study of Mus musculus with 16 samples.

Results

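Fgf11, Fgf12, Fgf13 and Fgf14 encode the intracellular fibroblast growth factors, also called fibroblast growth factor homologous factors. They were taken from the deposited count table by gene symbol, which gave 4 genes of the 24539 listed. All 4 also passed the filter on low counts that left 13224 genes for testing.

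Intracellular FGFs share the fold of the secreted fibroblast growth factors but lack the signal for secretion and stay inside the cell. They bind the cytoplasmic tail of voltage-gated sodium channel alpha subunits, where they shift the voltage at which the channel inactivates and help place the channel at the axon initial segment. Pyrethroid insecticides such as alpha-cypermethrin act on the same alpha subunits and hold the channel open for longer. In the embryonic cortex FGF13 is further known as a microtubule-stabilizing protein needed for neuronal migration.

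The study profiled migrating cortical interneurons of mouse embryos by RNA sequencing. Cells carrying green fluorescent protein were cut by laser microdissection from the cortical plate of CD1 embryos, labelled male, that carried 1 GAD67-GFP allele, at embryonic day 14.5. About 100 cells were taken from each of 10 sections of 10 µm, about 1000 cells in all, and each sample came from a single embryo of its litter. Dams received either corn oil or alpha-cypermethrin at 10 mg/kg by gavage on gestational days 11 to 14, the last dose 90 min before euthanasia. Stressed dams were also restrained 3 times for 45 min on gestational days 12 and 13, and once more on day 14, ending 15 min before euthanasia. The 4 groups were therefore corn oil alone (vehicle group), alpha-cypermethrin alone (cypermethrin group), corn oil with restraint (stressed vehicle group) and alpha-cypermethrin with restraint (stressed cypermethrin group), with 4 embryos in each. Corn oil as carrier, the CD1 strain and the GAD67-GFP allele were common to all 16 libraries.

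Library totals ran from 2291283 to 4324129 counts, with a median of 3695782. The description labels carry 1 of 2 library codes, and the sources used here do not say what a code stands for. The first code was on 7 libraries and the second on 9, with 1 of 4 cypermethrin libraries and 2 of 4 in each other group under the first. One library, stressed vehicle replicate 1, held 9521 Xist counts and 1 count over 4 Y-linked genes, while the other 15 held at most 26 Xist counts and at least 555 Y-linked counts, so it did not match its label as male. Interneuron markers were present: all 12 of 12 passed the filter, with summed levels of 1424 to 2387 counts per 1000000 counts of the scaled library (CPM), and Gad1, which encodes the enzyme GAD67, was at 70.0 ± 29.7 CPM (SD, n = 16). Markers of cortical glutamatergic neurons summed to 4476 to 7476 CPM, those of Cajal-Retzius cells to 1728 to 3339 CPM, and those of endothelium to 124 to 465 CPM. Pericyte and meningeal fibroblast markers summed to 1330 to 3937 CPM, and those of radial glia and progenitors to 606 to 894 CPM. Macrophage and microglia markers summed to 42.5 to 446 CPM, and erythroid markers to 24.6 to 277 CPM. The captured material thus held RNA of cells other than interneurons, and a level given here is that of the whole capture. In such bulk samples, fewer cells of a type and less RNA per cell cannot be told apart. Within each group, embryos came from separate litters according to the labels, so the spread between libraries includes both biological and technical variation.

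The 4 genes lie on 4 chromosomes, all on the minus strand of the mm10 assembly and all annotated as protein coding in GENCODE vM21. Fgf11 is compact, at chr11:69796068-69801857, a span of 5.8 kb. The other 3 are long genes with large introns: Fgf12 spans 593.0 kb at chr16:28160098-28753068, Fgf13 spans 505.9 kb at chrX:59062145-59568071, and Fgf14 spans 699.2 kb at chr14:123977907-124677127. The exons of Fgf14 share 220 bases with the antisense gene Gm28932, which is not a row of the table, and the sources used here do not state whether counting used strand. No other exon of a member was shared with another annotated gene.

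How alike the 4 transcripts are bears on whether counts can be told apart between them. Windows of 90 coding bases without a gap were searched, each inside a single exon of every principal transcript. The most conserved of them lay in exon 4 of the 5 exons of each. It is printed here in the sense of the transcript from GENCODE vM21, with capitals marking each base that differs from Fgf13.
Fgf11: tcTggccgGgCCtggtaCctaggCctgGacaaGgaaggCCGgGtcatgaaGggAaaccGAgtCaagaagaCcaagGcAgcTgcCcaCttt
Fgf12: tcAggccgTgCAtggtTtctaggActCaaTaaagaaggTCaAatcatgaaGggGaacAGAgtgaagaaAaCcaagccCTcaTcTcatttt
Fgf13: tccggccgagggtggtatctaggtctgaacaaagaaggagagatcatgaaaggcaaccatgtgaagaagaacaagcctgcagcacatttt
Fgf14: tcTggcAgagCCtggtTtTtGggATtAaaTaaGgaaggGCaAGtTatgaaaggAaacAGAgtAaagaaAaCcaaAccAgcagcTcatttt
The Fgf11 window lies at chr11:69798583-69798672, that of Fgf12 at chr16:28189453-28189542, that of Fgf13 at chrX:59067420-59067509 and that of Fgf14 at chr14:123983788-123983877. Even here only 53 of the 90 bases were the same in all 4 genes, and Fgf11, Fgf12 and Fgf14 differed from Fgf13 at 23, 22 and 27 bases. Over the whole coding sequence Fgf12 and Fgf14 were the most alike pair, with 71.4% identical bases, and Fgf11 was the least like the others, at 61.9% with Fgf13 and with Fgf14. The longest exact run that any pair shared in coding sequence, both in the sense direction, was 15 bases, between Fgf12 and Fgf14. Over all annotated transcripts the reverse complement was searched too, and the longest run was 37 bases, between Fgf11 and Fgf13. Whether that run was a sense or a reverse-complement match was not recorded.

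All 4 genes were expressed in all 16 libraries, and Fgf13 was the most abundant of them. On the scale of CPM per kilobase of annotated exon, which allows levels of different genes to be compared, Fgf13 was at 25.8 ± 7.23, Fgf11 at 13.6 ± 5.73, Fgf12 at 11.0 ± 4.32 and Fgf14 at 8.32 ± 4.90 (SD, n = 16 for each). Fgf13 made up 44.4% ± 9.82 of the summed level of the 4 genes per kilobase, Fgf11 22.9% ± 9.26, Fgf12 18.6% ± 6.34 and Fgf14 14.2% ± 8.02. The order of the genes was compared within libraries by a permutation test that flips the sign of each library's log2 difference over all sign patterns of the 16 libraries, with 0.5 CPM per kilobase added before the logarithm, and with Benjamini-Hochberg adjustment over the 6 pairs.

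Fgf13 exceeded each of the other 3 genes. Its level per kilobase was above that of Fgf14 in 16 of 16 libraries, by 1.81 ± 1.18 on the log2 scale (SD), and above that of Fgf12 in all 16, where Fgf12 was lower by a log2 difference of -1.27 ± 0.75. Both had an adjusted p of 9.16e-05, from the smallest p that the test can give with 16 libraries, 3.05e-05. Fgf11 was above Fgf13 in only 1 of 16 libraries, cypermethrin replicate 3, and the mean log2 difference was -0.98 ± 0.58 (two-sided permutation test, adjusted p = 0.000183).

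Among the lower 3 genes, Fgf14 came last. Fgf12 exceeded Fgf14 per kilobase in 13 of 16 libraries by 0.54 ± 0.72 on the log2 scale (adjusted p = 0.0151). Fgf11 exceeded Fgf14 in 12 of 16 libraries by 0.84 ± 1.38 (adjusted p = 0.0166), but with the longest annotated transcript in place of all exons this log2 difference was 0.65 and its adjusted p 0.0779. Fgf11 and Fgf12 were neighbours that could not be separated: Fgf11 was higher in 11 of 16 libraries by 0.30 ± 0.90 (adjusted p = 0.216), and with the longest transcript the sign was opposite, at -0.26.

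**Figure D1:**
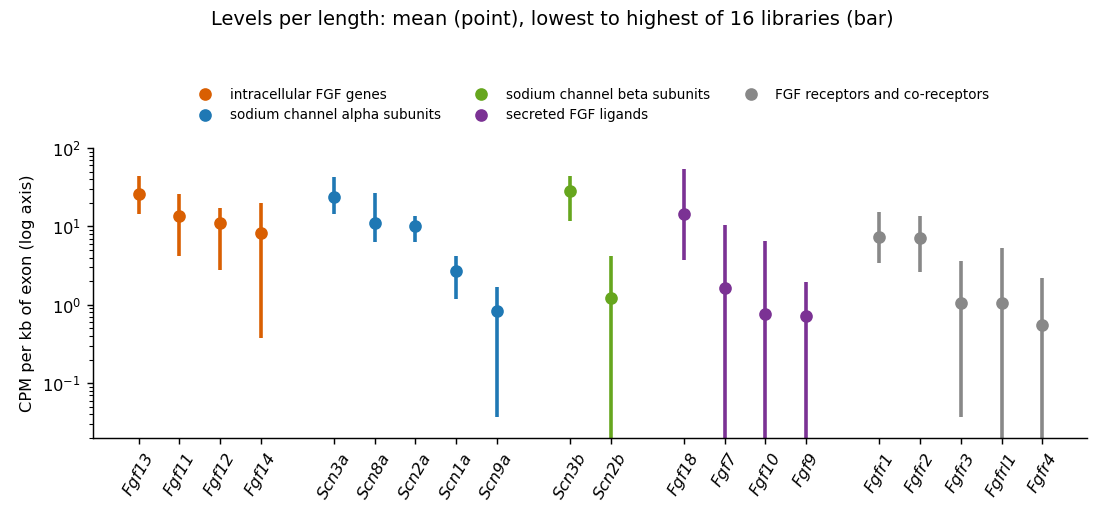
Levels in CPM per kilobase of exon (log axis, cut at 0.02, so that bars reaching the axis include libraries with lower levels or no count) of the intracellular FGF genes, sodium channel subunits, secreted FGF ligands and FGF receptors that passed the filter; points are means and bars run from the lowest to the highest of 16 libraries. Fgf13, at 25.8, lies beside Scn3a at 23.4 and Scn3b at 28.4, while the other 3 intracellular FGF genes lie between 8.32 and 13.6.

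Transcripts of the channel subunits that intracellular FGFs bind were present beside them. Of 10 sodium channel alpha subunit genes, 5 passed the filter. Scn3a, which encodes the alpha subunit typical of the embryonic brain, was at 23.4 ± 7.87 CPM per kilobase, Scn8a at 11.0 ± 4.80 and Scn2a at 10.1 ± 2.15, while Scn1a was at 2.72 ± 1.00 and Scn9a at 0.845 ± 0.499 (SD, n = 16). The others had too few counts to be tested. Among the 4 beta subunits, which are single-pass partners of the channel, 2 passed the filter, Scn3b at 28.4 ± 7.82 CPM per kilobase and Scn2b at 1.22 ± 1.04.

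Summed over genes, the 4 intracellular FGF genes reached 58.7 ± 13.0 CPM per kilobase and the 10 alpha subunits 48.4 ± 9.80, a ratio of 1.24 ± 0.279 that ran from 0.754 to 1.71 over the 16 libraries. By group the ratio was 1.21 ± 0.229 in the vehicle group, 1.35 ± 0.410 in the cypermethrin group, 1.19 ± 0.331 in the stressed vehicle group and 1.195 ± 0.188 in the stressed cypermethrin group (SD, n = 4). These ranges overlapped among all 4 groups. Secreted FGF ligands were lower in sum on average, though not in every library: 4 of 18 passed the filter and 5 had no count in any library. Fgf18 led them at 14.6 ± 12.7 CPM per kilobase, and the 18 genes summed to 19.9 ± 15.1.

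**Figure D2:**
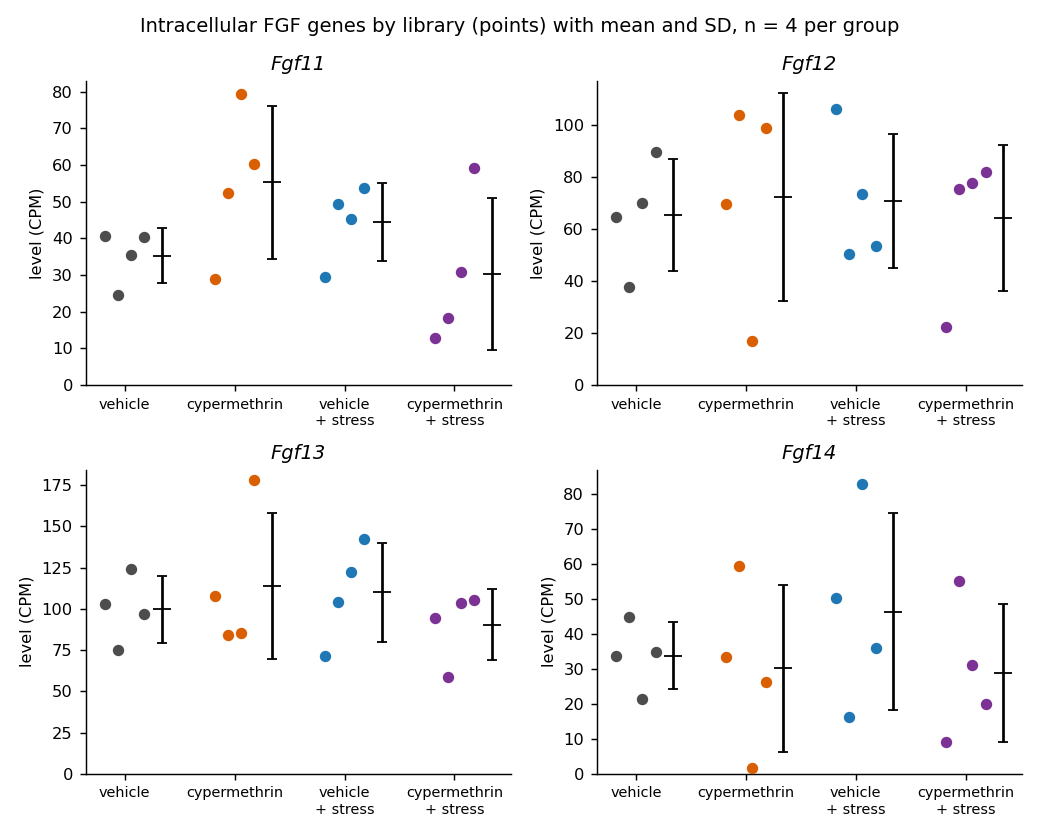
Level of each intracellular FGF gene in CPM (vertical axis, from 0) in the 4 libraries of each of the 4 groups (points), with the mean and SD beside them. In each panel the points of all 4 groups overlap, and the cypermethrin group holds a library with 1.59 CPM of Fgf14 and another with 178 CPM of Fgf13.

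Levels by library follow, as CPM after scaling of library sizes, in the order of replicates 1 to 4. This scale compares libraries for 1 gene and not genes with each other. Fgf13, the member tied to microtubules and migration, was the steadiest of the 4, with a 3.05-fold range over all libraries. It stood at 103, 75.1, 124 and 97.0 CPM in the vehicle group and at 108, 83.9, 85.3 and 178 CPM in the cypermethrin group. In the stressed vehicle group it was 71.3, 104, 122 and 143 CPM, and in the stressed cypermethrin group 94.5, 58.6, 104 and 105 CPM. The highest of all, in cypermethrin replicate 4, and the lowest, in stressed cypermethrin replicate 2, thus both came from embryos exposed to cypermethrin. Stressed vehicle replicate 1, the library with high Xist, had the second lowest level of this X-linked gene.

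Fgf12, which like its relatives modulates sodium channel inactivation and whose human gene is mutated in an early epileptic encephalopathy, varied 6.27-fold. It stood at 64.6, 37.7, 70.1 and 89.8 CPM in the vehicle group and at 69.9, 104, 17.0 and 99.0 CPM in the cypermethrin group. With restraint it was 107, 50.4, 73.7 and 53.5 CPM in the vehicle embryos and 22.2, 75.4, 77.7 and 82.2 CPM in the cypermethrin embryos. In each cypermethrin-exposed group 1 library lay far below the other 3. The stressed vehicle group was uneven too, with its highest library at 107 CPM and the next at 73.7 CPM.

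Fgf11, the shortest and least studied gene of the family, varied 6.25-fold. Its level was 40.7, 24.6, 35.6 and 40.4 CPM in the vehicle group, and 29.0, 52.4, 79.4 and 60.3 CPM in the cypermethrin group. There 3 of 4 libraries lay above every library of the vehicle group, and the share of tested genes with such a pattern was not counted. Those 3 libraries carried the second library code, and replicate 1 the first. Over all groups Fgf11 ran from 12.7 to 49.5 CPM under the first code and from 30.9 to 79.4 CPM under the second. Under restraint the vehicle embryos had 29.5, 49.5, 45.2 and 53.7 CPM. The stressed cypermethrin embryos had 12.7, 18.2, 30.9 and 59.3 CPM, the widest spread of any group relative to its mean, with a coefficient of variation of 68.7%.

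Fgf14, which acts at the axon initial segment and whose human gene is mutated in an inherited spinocerebellar ataxia, varied most, 52.1-fold over all libraries and 9.27-fold without the lowest, cypermethrin replicate 3. The vehicle group had 33.7, 44.9, 21.4 and 35.0 CPM and the cypermethrin group 33.3, 59.5, 1.59 and 26.2 CPM. Among stressed embryos the vehicle group had 50.4, 16.3, 83.0 and 36.1 CPM and the cypermethrin group 8.96, 55.1, 31.1 and 19.9 CPM. The level in cypermethrin replicate 3 rested on 6 counts, with an exact 95% Poisson interval of 2.20 to 13.1 counts that covers counting error only. That library also had the lowest Fgf12 and the highest Fgf11 level of all 16, while its Fgf13 level was inside the range of the vehicle group.

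The spread between replicates set what the comparisons could show. The biological coefficient of variation that edgeR estimated for the gene was 0.307 for Fgf13, at the 16.1th percentile of the 13224 tested genes, 0.432 for Fgf11, 0.439 for Fgf12 and 0.611 for Fgf14, at the 60.4th percentile. The estimate common to all genes was 0.586. The fitted trend for genes of the same level was 0.447 for Fgf11, 0.377 for Fgf12, 0.33 for Fgf13 and 0.477 for Fgf14. Fgf12 and Fgf14 thus varied more than the trend at their level, and Fgf11 and Fgf13 less.

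No intracellular FGF gene was called different in any of 6 comparisons by edgeR's quasi-likelihood test (threshold of 0.05 on p after Benjamini-Hochberg adjustment). Of all 13224 tested genes, 0% were called in each comparison. Without adjustment, 0 of 4 members had an edgeR p under 0.05 in any comparison with all libraries. For Fgf11 in the interaction the unadjusted p was under 0.05 with other tools, at 0.0479 in DESeq2 and 0.0337 in limma voom. In edgeR it moved with single libraries. It was 0.00839 without stressed cypermethrin replicate 4, where the adjusted p was 1.0, and 0.0337 without stressed vehicle replicate 1. Without stressed cypermethrin replicate 1 it was 0.125. DESeq2 and limma voom also called 0 of 4 members in each, with a smallest adjusted p of 0.795, from DESeq2 for Fgf11 in the interaction. Because of this every difference given next is an estimate with its interval, and none is a change beyond the spread between embryos.

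**Figure D3:**
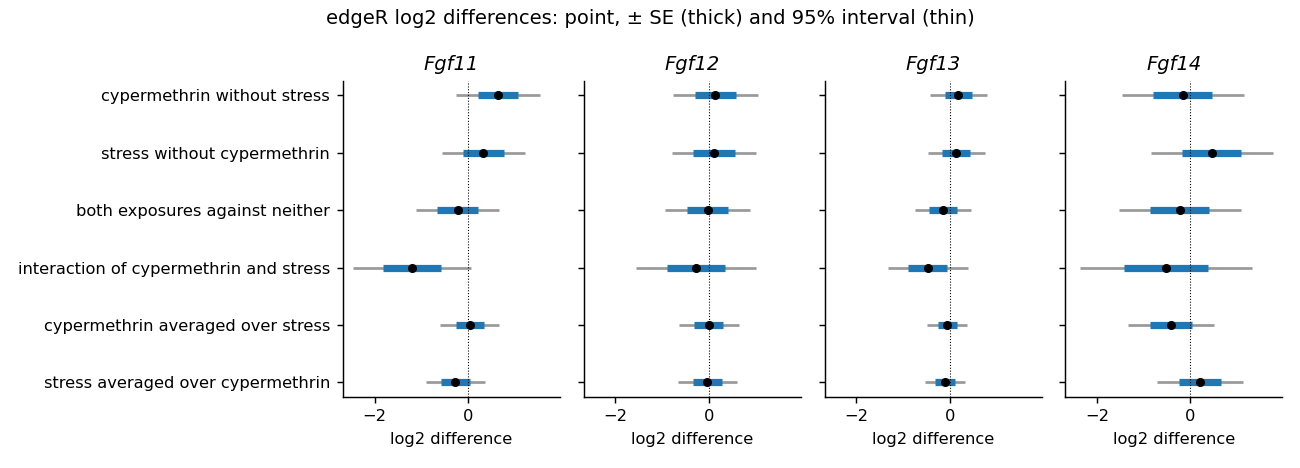
Log2 differences of the 4 genes (horizontal axis) in the 6 comparisons (vertical axis) from edgeR, with ± 1 SE as thick and the 95% interval as thin lines. Every thin line crosses 0, and the intervals are narrowest for Fgf13 and widest for Fgf14.

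The first comparison asked what alpha-cypermethrin did without restraint. For Fgf11 the fitted log2 difference from the vehicle group was 0.65 ± 0.44 (SE, 4 libraries in each group; edgeR adjusted p = 0.999), with a 95% interval from 0.841-fold to 2.91-fold. The estimates were 0.14 ± 0.44 for Fgf12, 0.19 ± 0.30 for Fgf13 and -0.16 ± 0.64 for Fgf14, each with an adjusted p of 0.999 in edgeR. The interval for Fgf13 ran from 0.748-fold to 1.73-fold and that for Fgf14 from 0.362-fold to 2.21-fold. No library group stood clear of the other for any of the 4 genes: the groups overlapped in CPM, as for all but 2.52% of tested genes, and 3.71% of tested genes had an unadjusted p under 0.05. Without cypermethrin replicate 3 the estimate for Fgf12 was 0.48 and that for Fgf14 was 0.24, of opposite sign to the estimate with it. Without cypermethrin replicate 2 the estimate for Fgf14 was -0.73. With all libraries limma voom put Fgf14 at -1.03, while DESeq2 put it at -0.16. In the libraries of the first code the differences of Fgf11, Fgf12, Fgf13 and Fgf14 were -0.17, 0.45, 0.28 and -0.24, and within the second 0.76, -0.13, 0.06 and 0.04.

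Restraint without cypermethrin was the second comparison, and all 4 estimates were above 0. They were 0.34 ± 0.44 for Fgf11, 0.11 ± 0.44 for Fgf12, 0.14 ± 0.30 for Fgf13 and 0.46 ± 0.63 for Fgf14 (log2, SE), with edgeR adjusted p-values from 0.986 to 1.00. The widest interval, for Fgf14, ran from 0.557-fold to 3.39-fold. Groups overlapped for each gene, against 2.90% of tested genes whose groups did not, and 5.08% of tested genes had an unadjusted p under 0.05. None of the 4 genes set restrained vehicle embryos apart from unrestrained ones. Leaving out stressed vehicle replicate 1, the library with high Xist, moved the estimate for X-linked Fgf13 to 0.30 and that for Fgf12 to -0.15. Without stressed vehicle replicate 3, which had the highest Fgf14 level of all, the estimate for Fgf14 was 0.02. Without stressed vehicle replicate 4 that for Fgf13 was -0.0031. By library code, in the same gene order, the values were 0.28, 0.61, -0.02 and -0.24 in the first and 0.38, -0.33, 0.26, and 1.08.

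Embryos with both exposures were set against those with neither in the third comparison. All 4 estimates were below 0 and small: -0.22 ± 0.44 for Fgf11, -0.02 ± 0.44 for Fgf12, -0.14 ± 0.30 for Fgf13 and -0.23 ± 0.63 for Fgf14, each with an edgeR adjusted p of 1.0. The narrowest interval, for Fgf13, ran from 0.596-fold to 1.38-fold. The others were wider, from 0.462-fold to 1.60-fold for Fgf11, 0.525-fold to 1.84-fold for Fgf12 and 0.347-fold to 2.11-fold for Fgf14. Groups overlapped for each gene, against 2.62% of tested genes whose groups did not, and 1.49% of tested genes had an unadjusted p under 0.05. Without stressed cypermethrin replicate 1 the estimate was 0.03 for Fgf11, 0.26 for Fgf12 and 0.07 for Fgf14. Split by code, the 4 values were -1.08, -0.07, -0.22 and -0.29 in the first and 0.24, -0.0013, -0.08 and -0.14 in the second.

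The interaction asked whether the difference made by cypermethrin itself differed between restrained and unrestrained dams. Its estimate was below 0 for all 4 genes in edgeR, though limma voom put Fgf12 at 0.06 and Fgf14 at 0.42, and the edgeR median was -0.50 against -0.04 over all tested genes. The comparison shares libraries with the other 5, so its direction is no separate evidence. Fgf11 had the smallest unadjusted p of any member in any comparison: the cypermethrin difference was lower with restraint by a log2 value of -1.20 ± 0.62 (edgeR adjusted p = 0.985), with an interval from -2.47 to 0.06. The mean Fgf11 level was 35.3 ± 7.55 CPM in the vehicle group, 55.3 ± 20.9 with cypermethrin, 44.5 ± 10.6 with restraint and 30.3 ± 20.8 with both (SD, n = 4). Thus the mean was highest with cypermethrin alone and lowest with both exposures. Its interaction was -1.19 within the first library code, where the cypermethrin group had only 1 library. Within the second it was -0.90 (edgeR unadjusted p = 0.178). The values were -0.28 ± 0.63 for Fgf12, -0.47 ± 0.42 for Fgf13 and -0.52 ± 0.90 for Fgf14, and 4.70% of tested genes had an unadjusted p under 0.05. Within the first code Fgf12, Fgf13 and Fgf14 were at -1.13, -0.48 and 0.19, and within the second at 0.46, -0.41 and -1.26.

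Averaging over the other exposure used all 16 libraries and gave the narrowest intervals. For cypermethrin averaged over restraint the log2 differences were 0.04 ± 0.31 for Fgf11, 0.002 ± 0.31 for Fgf12, -0.05 ± 0.21 for Fgf13 and -0.42 ± 0.45 for Fgf14. The intervals ran from 0.666-fold to 1.60-fold, from 0.642-fold to 1.56-fold, from 0.719-fold to 1.30-fold and from 0.393-fold to 1.41-fold. Fgf13 was again the most closely bounded gene and Fgf14 the least. For Fgf14 limma voom gave -0.82 and DESeq2 -0.43. The edgeR adjusted p-values were 0.981 to 0.999, and 4.59% of tested genes had an unadjusted p under 0.05. Within the first library code the 4 values were -0.76, -0.11, 0.04 and -0.14, and within the second 0.31, 0.10, -0.14 and -0.59.

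For restraint averaged over cypermethrin the log2 differences were -0.27 ± 0.31 for Fgf11, -0.03 ± 0.31 for Fgf12, -0.09 ± 0.21 for Fgf13 and 0.20 ± 0.45 for Fgf14. Fgf13 was bounded most tightly, between 0.697-fold and 1.26-fold, and Fgf14 least, between 0.606-fold and 2.17-fold. The edgeR adjusted p-values were 0.980 to 0.998, and 5.13% of tested genes had an unadjusted p under 0.05. Libraries of the first code gave -0.32, 0.05, -0.26 and -0.15, and those of the second -0.06, -0.10, 0.06 and 0.44.

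The other genes of the pathway gave the same count of calls, 0 in each of 6 lists and 6 comparisons. Among the 5 tested alpha subunits, Scn8a, the subunit of mature axon initial segments, was at a log2 difference of 0.73 ± 0.29 with restraint alone (adjusted p = 0.965) and had an interaction of -1.02 ± 0.41 (adjusted p = 0.985). Without stressed vehicle replicate 1, the library with high Xist, these values were 0.28 and -0.58. Its restraint difference averaged over cypermethrin was 0.22 ± 0.20, or -0.0062 without that library, and Scn3a was at -0.24 ± 0.18 with cypermethrin averaged over restraint (adjusted p = 0.981; -0.14 without the same library and -0.43 without cypermethrin replicate 3). The median of the 5 alpha subunits with cypermethrin alone was 0.13, against 0.03 for all tested genes and 0.16 for the 4 intracellular FGF genes. Both tested beta subunits were fitted lower with cypermethrin alone, Scn3b by a log2 value of -0.30 ± 0.29 (adjusted p = 0.999), which was -0.06 without cypermethrin replicate 3 and -0.59 without replicate 4.

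All 15 genes for anchors, scaffolds and kinases of the initial segment and its channels passed the filter, among them the calmodulin gene Calm2, whose product binds the same channel tail. Calm2 was at 516 ± 77.0 and Gsk3b at 84.3 ± 11.5 CPM per kilobase (SD, n = 16). With cypermethrin alone 2 of 15 had an unadjusted p under 0.05, against 3.71% of all tested genes, one being Calm2 at 0.33 ± 0.15 (adjusted p = 0.999), and with restraint alone again 2 of 15, against 5.08%, one being Gsk3b, a kinase that acts on FGF14 and the channel complex, at 0.35 ± 0.14 (adjusted p = 0.965). For the interaction 2 of 15 did, against 4.70%, with Csnk2a1, the catalytic subunit of casein kinase 2, at -0.98 ± 0.34 (adjusted p = 0.985). The 12 microtubule genes, relevant to the second role of FGF13, all passed the filter, with Tuba1a, Map1b and Tubb2b the most abundant at 3233 ± 681, 977 ± 80.8 and 401 ± 75.8 CPM per kilobase. With restraint averaged over cypermethrin 3 of 12 had an unadjusted p under 0.05, against 5.13% of all tested genes, led by the tubulin gene Tuba1a at 0.31 ± 0.12 (adjusted p = 0.960), and the list median was 0.05 against -0.001 for all tested genes.

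Secreted ligands and their receptors form the other arm of the FGF family. Of 4 tested ligands, 1, Fgf7, had an unadjusted edgeR p under 0.05 for restraint averaged over cypermethrin, against 5.13% of all tested genes. Its log2 difference was -2.48 ± 0.88 (edgeR adjusted p = 0.960), and -1.22 without cypermethrin replicate 4. The level of Fgf7 was low and uneven, at 5.39 ± 8.79 CPM (SD, n = 16) with 263 counts in all. Fgf18 was at 0.78 ± 0.68 with cypermethrin alone and at -0.04 without cypermethrin replicate 3. Of 5 tested receptor genes Fgfr3 was at -2.49 ± 0.94 with cypermethrin alone (adjusted p = 0.999), or -1.52 without vehicle replicate 1, and at -1.73 ± 0.64 averaged over restraint (adjusted p = 0.981). Fgfr3 was low as well, at 7.64 ± 7.23 CPM (SD, n = 16) with 419 counts in all. None of these ligand and receptor genes passed edgeR's adjusted threshold. Fgfr1 and Fgfr2 were the most abundant receptors, at 7.22 ± 3.08 and 7.15 ± 3.50 CPM per kilobase (SD, n = 16).

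Whether the 4 genes varied together between embryos was examined by correlation of log2 CPM over the 16 libraries, with 100000 permutations and adjustment over 6 pairs. Fgf12 and Fgf14, the pair with the most similar coding sequence, gave Pearson's r = 0.77 (p = 0.00184, adjusted p = 0.0110) and Spearman's rho = 0.46 (p = 0.0732, adjusted p = 0.226). The relation rests on 2 libraries that had the lowest level of both genes: without cypermethrin replicate 3 and stressed cypermethrin replicate 1, r was 0.19 and rho 0.20. Among libraries of the first code r was 0.76 (n = 7, exact permutation test, adjusted p = 0.275) and within the second, which holds cypermethrin replicate 3, it was 0.85 (n = 9, exact permutation test, adjusted p = 0.307). With each group centred on its mean and permutation within groups, r was 0.79 (adjusted p = 0.110).

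The other 5 pairs had Pearson's r between -0.23 and 0.47, none past the adjusted threshold. Fgf11 and Fgf13 came next at r = 0.47 (adjusted p = 0.199) and rho = 0.46 (adjusted p = 0.226). Fgf11 with Fgf14 was at r = -0.23, and without the 2 libraries farthest from the median of Fgf11 at r = -0.56 (adjusted p = 0.176). Fgf12 with Fgf13 was at r = 0.15 and rho = -0.02.

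**Figure D4:**
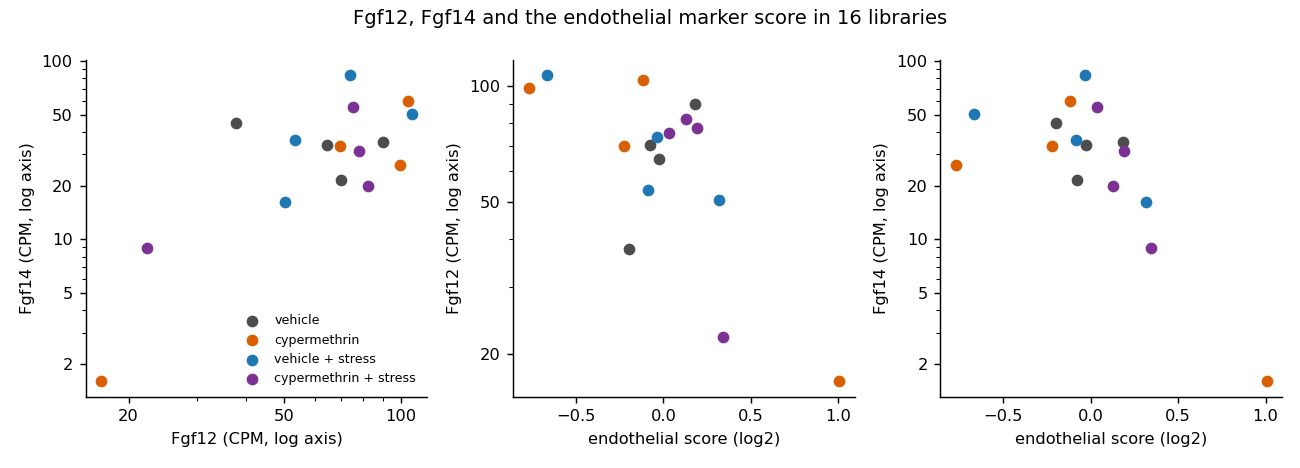
Fgf14 against Fgf12 (left, both in CPM on log axes), and Fgf12 (middle) and Fgf14 (right) in CPM on log axes against the endothelial marker score, the mean centred log2 CPM of 6 genes; each point is 1 of 16 libraries, coloured by group. Cypermethrin replicate 3 lies at the corner of each panel, with 17.0 CPM of Fgf12, 1.59 CPM of Fgf14 and the highest score, 1.01.

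Levels of marker genes of 8 cell types were set beside the 4 genes, since each capture held several cell types. A score used only the listed markers that passed the filter. These were 8 of 9 for radial glia and progenitors and 2 of 7 for erythroid cells, and all those listed for the other types. Over the 32 pairs of gene and marker score no Pearson correlation passed the adjusted threshold. The 2 strongest were of Fgf12 and Fgf14 with the 6 endothelial markers. For Fgf12, r was -0.71 (adjusted p = 0.0694) and rho -0.46 (adjusted p = 0.338). For Fgf14, r was -0.70 (adjusted p = 0.0762) and rho -0.54 (adjusted p = 0.338). Without the 2 libraries with the most extreme endothelial scores r was -0.43 and -0.59, and rho -0.22 and -0.59. Inside the first code r was -0.70 and -0.75 (n = 7, exact permutation test, adjusted p = 0.724 for both), and rho -0.64 and -0.54. Within the second r was -0.79 and -0.68 (n = 9, exact permutation test, adjusted p = 0.235 and 0.262), and rho -0.45 and -0.40. With centring on group means r was -0.71 and -0.73 (adjusted p = 0.208 and 0.338).

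Fgf14 and the markers of Cajal-Retzius cells gave the only Spearman correlation past the adjusted threshold, rho = -0.75 (adjusted p = 0.0333), beside r = -0.61 (adjusted p = 0.105). This call was lost with library totals (rho = -0.72, adjusted p = 0.0691), with centring on group means (rho = -0.70, adjusted p = 0.122), without the 2 most extreme libraries (rho = -0.69, adjusted p = 0.145; r = -0.58) and within the first code (rho = -0.54, exact permutation test, adjusted p = 0.952; r = -0.50). It was kept within the second (rho = -0.93, exact permutation test, adjusted p = 0.0240; r = -0.74). The Cajal-Retzius score weights its 6 genes equally, among them Lhx1 and Lhx5 at 6.92 and 9.57 CPM beside Reln at 2263 CPM. Score and summed level can therefore differ: stressed vehicle replicate 1 had a score of -0.69 but a sum of 2818 CPM, above the median of 2632 CPM. Interneuron markers correlated with Fgf13 at r = 0.51 (adjusted p = 0.357) and rho = 0.47 (adjusted p = 0.338). With Fgf14 they were at r = 0.48, with Fgf12 at r = 0.37 and with Fgf11 at r = 0.07.

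**Figure D5:**
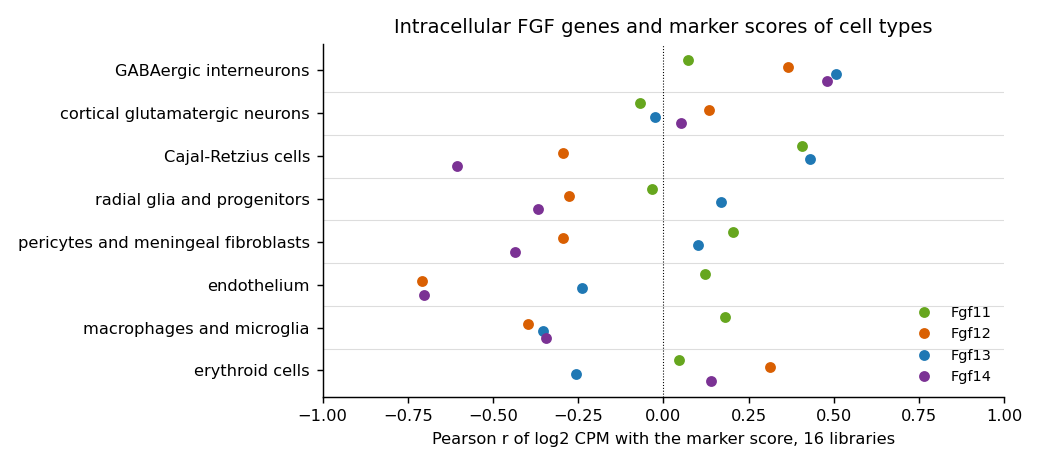
Pearson's r over 16 libraries (horizontal axis) between log2 CPM of each intracellular FGF gene (colours) and the marker score of each of 8 cell types (vertical axis). The erythroid score rests on 2 genes. The lowest values, -0.71 and -0.70, are those of Fgf12 and Fgf14 with endothelium, and the highest, 0.51, is that of Fgf13 with interneuron markers.

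Cypermethrin replicate 3, the library with the lowest Fgf12 and Fgf14 levels, also had the highest summed endothelial and macrophage markers of the 16, at 465 and 446 CPM against medians of 250.1 and 129 CPM. Its pericyte and meningeal fibroblast markers were the highest as well, at 3937 CPM and a score of 0.75. Its interneuron markers summed to 1619 CPM, inside the range of 1424 to 2042 CPM of the vehicle group, but their score of -0.56, which weights each marker equally, was the lowest of the 16 and outside the range of -0.23 to 0.36 of that group. Stressed cypermethrin replicate 1, second lowest in both genes, had endothelial markers at 312 CPM and interneuron markers at 1721 CPM. The 504 genes spanning at least 300 kb, the length class of Fgf12, Fgf13 and Fgf14, had a median log2 deviation of -0.18 from their means in cypermethrin replicate 3, the lowest of the 16 libraries, against -0.02 for the other genes, and of 0.04 in stressed cypermethrin replicate 1. The part of cell makeup or gene length in these levels was not tested.

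Genes with the most similar pattern were ranked among 13223 tested genes by Pearson's r of log2 CPM over the 16 libraries, as a description. Gmfb was first for Fgf11 at r = 0.90 (0.79 without the 2 libraries farthest from the median of Fgf11), followed by Ccdc71l at 0.87 and Ube2j1 at 0.86. For Fgf13 the first were Pus3 at 0.88, Cdk8 at 0.86 and Gjc1 at 0.83, with 0.77, 0.75 and 0.75 without 2 libraries. Fgf14 was most like Rnasek at 0.91, Fnip1 at 0.90 and Rgp1 at 0.88, and Fgf12 most like Rilpl1 at 0.88, Gm6994 at 0.87 and Gm20324 at 0.87. Spearman's rho ran from 0.78 to 0.82 for the 3 genes of Fgf11, from 0.76 to 0.86 for those of Fgf13, from 0.79 to 0.81 for those of Fgf14 and from 0.57 to 0.62 for those of Fgf12. For Fgf12 and Fgf14 these rested in part on cypermethrin replicate 3 and stressed cypermethrin replicate 1, since without them r was 0.51, 0.67 and 0.52 for Fgf12 and 0.79, 0.63 and 0.56 for Fgf14. No member was among the 3 genes most like another member.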

How the data were processed

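Reads were aligned with STAR 2.5 to mm10, per the submitters' processing notes. The labels' protocols name RecoverAll isolation and the Trio RNA-seq kit. The sources used here do not name the counting tool, its annotation or its strand setting. The deposited table holds the authors' raw read counts per gene symbol for 24539 genes, 18733 with a count. Groups came from the sample labels. edgeR 4.0.16 was run on all 16 libraries (10 counts as the filter's minimum, trimmed mean of M values, robust quasi-likelihood test, 4 groups, 6 comparisons, Benjamini-Hochberg threshold 0.05 over 13224 genes) and tested on simulated data. Limma voom 3.58.1, DESeq2 1.42.0, other scalings and filters, the library code and leaving out each library were alternatives. Exon lengths, positions and sequences came from GENCODE vM21 and coding sequences were aligned with mafft 7.526. Interval bounds are at 95%. Pathway genes named in each comparison were those with the smallest p in their list. The 4 genes and all lists were chosen with earlier results of these data known. Some genes of these lists are not reported here.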

Additional observations from a re-analysis of the deposited data

Results flagged for a closer look

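Of the 16 combinations of 4 genes and 4 groups, 1 held a library set apart from the other 3 by more than 0.829 of the group's range. In the stressed cypermethrin group, replicate 1 had 22.2 CPM of Fgf12, the lowest value there (22.25 before rounding), while the other 3 libraries had 75.4, 77.7 and 82.2 CPM. Such a gap arises by chance in about 1 of 20 groups of 4. The same library also had the lowest Fgf11 level of all 16, 12.7 CPM, and the second lowest Fgf14 level, 8.96 CPM, while its Fgf13 level was 94.5 CPM.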

How the results depend on the processing

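No paired analysis was possible because replicate numbers follow accession order and tie no embryos across groups. The count of 0 called genes held under the other scalings, filters, limma voom and the library code as a term; DESeq2 gave 1 for cypermethrin averaged over restraint. Leaving out single libraries gave 0 to 1 called genes there (1 without stressed vehicle replicate 3) and 0 in the other 5 comparisons. Within the first library code, an alternative added after seeing the data, called genes numbered 2, 45, 13, 9, 14 and 7 in the order of the report, and no intracellular FGF gene was among them. That fit has 7 libraries for 4 groups and a single cypermethrin library, assumed to vary like the other groups. For the interaction, upper-quartile scaling moved the median log2 difference of all genes by 0.136, library totals by 0.129 and limma voom by 0.133.
The 4 genes were called in none of these, but the sign of small log2 differences varied, and the cause was not tested. With limma voom Fgf12 was at -0.18 for cypermethrin alone, 0.062 for the interaction, -0.15 for cypermethrin averaged and 0.072 for restraint averaged, Fgf14 at 0.42 for the interaction and Fgf11 at -0.12 for cypermethrin averaged. With the library code as a term Fgf11 and Fgf12 were at -0.17 and -0.045 for cypermethrin averaged, and Fgf12 at 0.017 for restraint averaged. Fgf12 for cypermethrin averaged was at -0.0056 with DESeq2 and -0.00073 with at least 10 counts in 8 libraries. Signs also differed within the first code for Fgf11 with cypermethrin alone (-0.17) and averaged (-0.76), Fgf12 with cypermethrin (-0.11) and restraint averaged (0.047), Fgf13 with restraint alone (-0.019) and cypermethrin averaged (0.042), Fgf14 with restraint alone (-0.24) and averaged (-0.15) and for the interaction (0.19), Scn2b with both exposures (0.39), Scn3b with cypermethrin averaged (0.029) and Fgf10 for the interaction (-0.27). In the second code this held for Fgf12 with cypermethrin alone (-0.13), restraint alone (-0.33) and the interaction (0.46), Fgf14 with cypermethrin alone (0.045), Fgf11 with both (0.24), Fgf13 with restraint averaged (0.056), Scn3a with both (0.068) and cypermethrin averaged (0.071), and Scn8a with restraint averaged (-0.12).
Leaving out 1 library at a time gave log2 ranges that crossed 0 for 21 results. With cypermethrin alone they were -0.089 to 0.48 for Fgf12, -0.11 to 0.31 for Fgf13, -0.73 to 0.24 for Fgf14 and -0.043 to 1.41 for Fgf18. With restraint alone they were -0.15 to 0.30 for Fgf12 and -0.0031 to 0.30 for Fgf13. For both exposures they were -0.77 to 0.032 for Fgf11, -0.22 to 0.26 for Fgf12, -0.26 to 0.015 for Fgf13, -0.75 to 0.069 for Fgf14 and -1.71 to 0.067 for Scn2b. For the interaction they were -0.62 to 0.0077 for Fgf12 and -1.05 to 0.049 for Fgf14. For cypermethrin averaged they were -0.23 to 0.17 for Fgf11, -0.11 to 0.17 for Fgf12, -0.20 to 0.030 for Fgf13 and -0.056 to 2.74 for Fgf10. For restraint averaged they were -0.19 to 0.11 for Fgf12, -0.17 to 0.056 for Fgf13, -0.065 to 0.48 for Fgf14 and -0.0062 to 0.35 for Scn8a. The interaction of Fgf11 stayed below 0 in all of these and in the other alternatives run.
With the longest transcript as length, Fgf11 over Fgf12 was -0.26 and Fgf11 over Fgf14 was 0.65 and no longer past the threshold. The count of 1 correlated pair of members was 0 within each code, without the 2 extreme libraries and centred on group means, where Fgf12 with Fgf14 had r of 0.76, 0.85, 0.19 and 0.79. Other pairs differed in sign within the first code (Fgf11 with Fgf14 0.19, Fgf12 with Fgf13 -0.29), within the second (Fgf11 with Fgf12 -0.53, Fgf11 with Fgf13 -0.037, Fgf13 with Fgf14 0.28), without 2 libraries (Fgf11 with Fgf12 -0.28, Fgf13 with Fgf14 0.10) and with library totals (Fgf13 with Fgf14 0.023). Counts per library were lowest for Fgf14, at 6 to 239.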
